A study of Mus musculus with 6 samples.

Results

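AMPA and kainate receptors are the fast glutamate-gated ion channels of the brain besides the NMDA receptors, and their mRNAs were examined here in the prefrontal cortex of aged mice after anesthesia and surgery. The group comprised 9 genes, chosen by name from the 21006 genes with a level in the deposited data. Of these, 4 encode the AMPA receptor subunits (Gria1 to Gria4) and 5 the kainate receptor subunits (Grik1 to Grik5). All 9 were found by their Ensembl identifiers, and all passed the filter on low levels.

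The 6 samples came from male wild type C57BL/6 mice aged 18 months by the age label, while the sample titles carry the code 17M, which the labels do not explain. The PND group (postoperative neurocognitive disorder model, n = 3 mice) breathed 1.5% isoflurane for 30 min and then had an exploratory laparotomy, in which the abdomen is opened and its organs are inspected, for another 30 min under isoflurane. Lidocaine cream and povidone iodine were applied to the wound on the following days. The CON group (n = 3 mice) had neither anesthesia nor operation. However, per the study's methods mice of both groups went through the same behavioural tests and were deeply anesthetized with isoflurane when the tissue was taken. This was 30 min after the last test, the Barnes maze, which ended on postoperative day 6. Each sample was the RNA of 1 mouse, depleted of ribosomal RNA, and its levels were given as FPKM, the number of sequenced fragments scaled to the length of the exons and to the depth of the library. In such bulk tissue, fewer cells of a type and less RNA per cell cannot be told apart.

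Each of these receptors is an assembly of 4 subunits around a central pore that opens when glutamate binds. AMPA receptors carry most of the fast excitatory current between cortical neurons, and their number at the synapse is adjusted during learning. GluA2, the product of Gria2, is changed at a pore residue by RNA editing and then keeps calcium out of the channel, whereas receptors without it let calcium pass. Kainate receptors act both at postsynaptic sites and on nerve terminals. GluK1, GluK2 and GluK3 (Grik1, Grik2 and Grik3) can form channels by themselves, and the high-affinity subunits GluK4 and GluK5 (Grik4 and Grik5) need one of them as a partner.

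The subunits share a common build, which is shown by the stretch of 30 codons that was most alike across the family. At 25 of these 30 codons all 9 genes encode the same amino acid, and the stretch lies at the channel gate, in the third membrane segment. It is printed for 8 of the members to show how similar, and at the same time how different in base composition, the messages are that the sequencing had to tell apart. The bases are from the GENCODE M21 transcripts (GRCm38), 5′ to 3′ on the coding strand, and capitals mark the bases that differ from Gria2.
Gria2: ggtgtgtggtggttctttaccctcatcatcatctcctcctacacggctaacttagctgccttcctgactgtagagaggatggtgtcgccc
Gria1: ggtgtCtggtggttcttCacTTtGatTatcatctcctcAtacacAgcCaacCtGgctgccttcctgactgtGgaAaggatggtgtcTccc
Gria4: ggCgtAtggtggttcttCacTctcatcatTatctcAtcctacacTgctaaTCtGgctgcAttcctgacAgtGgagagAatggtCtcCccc
Grik1: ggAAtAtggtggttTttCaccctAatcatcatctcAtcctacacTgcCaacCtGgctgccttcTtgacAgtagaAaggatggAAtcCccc
Grik2: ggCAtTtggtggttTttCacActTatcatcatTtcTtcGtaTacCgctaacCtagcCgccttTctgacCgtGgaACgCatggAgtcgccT
Grik3: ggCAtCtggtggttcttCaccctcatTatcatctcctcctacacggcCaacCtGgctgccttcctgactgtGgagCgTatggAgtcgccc
Grik4: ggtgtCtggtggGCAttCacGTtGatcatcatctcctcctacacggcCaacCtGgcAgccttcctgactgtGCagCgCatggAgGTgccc
Grik5: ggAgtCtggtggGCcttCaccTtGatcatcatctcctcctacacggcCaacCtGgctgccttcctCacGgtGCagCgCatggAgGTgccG

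Of the 90 bases, 12 (Grik3) to 22 (Grik2) differed from Gria2 among the sequences shown. The share of G and C in this stretch ran from 47.8% in Grik1 to 62.2% in Grik5. Over the whole reading frames, translated and aligned, the 4 AMPA subunits were identical at 67.8% to 73.1% of the aligned residues. Grik4 and Grik5 were identical to each other at 70.3%, and to Grik1, Grik2 and Grik3 at 41.5% to 44.8%. The longest run of bases shared by any transcripts of 2 members was 59 bases, between Gria3 and Gria4.

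In GRCm38 the 9 genes are protein-coding and lie on 8 chromosomes. Gria1 (ENSMUSG00000020524) is on chromosome 11 at 57011387 to 57330244, Gria2 (ENSMUSG00000033981) on chromosome 3 at 80681450 to 80802835, Gria3 (ENSMUSG00000001986) on chromosome X at 41400854 to 41678601 and Gria4 (ENSMUSG00000025892) on chromosome 9 at 4417896 to 4796234. Grik1 (ENSMUSG00000022935) is on chromosome 16 at 87895900 to 88290265, Grik2 (ENSMUSG00000056073) on chromosome 10 at 49094833 to 49788766 and Grik3 (ENSMUSG00000001985) on chromosome 4 at 125490700 to 125714173. Grik4 (ENSMUSG00000032017) shares chromosome 9 with Gria4, at 42518135 to 42944493, and Grik5 (ENSMUSG00000003378) is on chromosome 7 at 25009849 to 25072346. No exon of a member overlapped an exon on the opposite strand, and the overlaps on the same strand were with 4 small predicted genes over at most 111 bases (Gria2). The deposited levels carry no coordinates and 1 value for each gene, so the splice forms of a subunit, such as flip and flop of the AMPA family, cannot be separated.

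The libraries were first looked at as a whole. The sum of all FPKM lay between 215640 and 240447 per sample, and the depth estimated from the steps of low levels lay between 7210212 and 9381793 fragments. The labelled tissue was checked by its markers. The 10 markers of excitatory cortical neurons summed to 267 to 337 FPKM in the PND group and 246 to 441 FPKM in the CON group, with none under 1 FPKM in all samples. The 8 striatal markers were present as well, with sums of 211 to 263 FPKM in the PND group and 136 to 347 FPKM in the CON group, and the lowest sum was that of CON replicate 2. The part of striatal tissue in the results below was not tested. The samples also differed in how levels followed the GC content of the transcript (its share of G and C). In the decile of genes with the most GC, the median deviation from the gene mean on the log2 scale ran from -0.56 in CON replicate 1 and -0.30 in PND replicate 2 to 0.37 in PND replicate 3 and 0.49 in CON replicate 2. Both groups thus held samples at both ends, and the labels name no batch.

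AMPA subunits were the more abundant family. FPKM are scaled to exon length, but the annotation behind them was not given, and levels also followed GC content. Comparisons of level between genes, here and below, are therefore approximate. The FPKM of the AMPA subunits summed to 208, 210 and 197 in PND replicates 1 to 3. In CON replicates 1 to 3 they summed to 220, 194 and 204. The mean was 205 ± 6.98 FPKM (SD, n = 3) in the PND group and 206 ± 12.7 FPKM in the CON group. The kainate subunits summed to 47.4 ± 4.36 and 46.4 ± 2.61 FPKM. The summed AMPA FPKM was 4.36 ± 0.537 times the summed kainate FPKM in the PND group and 4.46 ± 0.448 times in the CON group. For both sums and their ratio the groups overlapped.

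**Figure D1:**
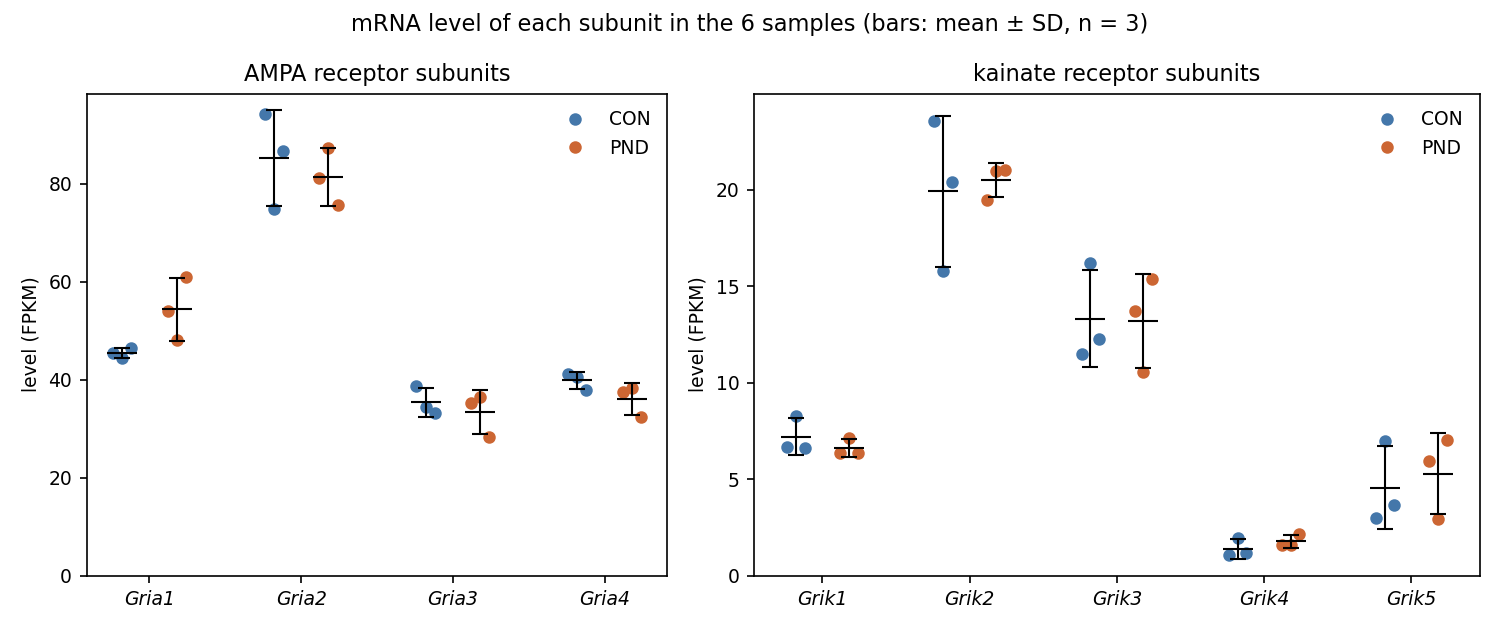
Level of each AMPA (left) and kainate (right) receptor subunit in FPKM, with 1 point per mouse (blue, CON; orange, PND) and bars for the mean ± SD of 3 mice. The points of the groups are apart only for Gria1, and the widest spread within both groups relative to the mean is that of Grik5.

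The order of the levels was the same at its upper end in all samples. Gria2 came first with a mean of 83.3 FPKM over the 6 samples, followed by Gria1 (49.9 FPKM), Gria4 (38.0 FPKM), Gria3 (34.4 FPKM), Grik2 (20.2 FPKM), Grik3 (13.3 FPKM), Grik1 (6.91 FPKM), Grik5 (4.93 FPKM) and Grik4 (1.58 FPKM). Among the genes tested, Gria2 lay at the 99.0th percentile of mean level and Grik4 at the 40.7th. Each gene was set against the next in this order within the same sample, by an exact paired permutation test (two-sided, adjusted after Benjamini-Hochberg over the 8 pairs). The order was taken from these same samples, so the p-values describe how constant it was and are no independent test of it. For 6 of the 8 pairs the upper gene was higher in 6 of 6 samples, with p = 0.03125, the smallest that 6 pairs allow, and an adjusted p of 0.0417 by the exact test. The other pairs each held a sample in the reverse order. Grik2 was above Grik3 in 5 of 6 samples (exact permutation p = 0.0625, adjusted p = 0.0714), with the reverse in CON replicate 2. Grik1 was above Grik5 in 5 of 6 samples (exact permutation p = 0.0938, adjusted p = 0.0938), with the reverse in PND replicate 3.

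To ask whether surgery and anesthesia went with a change of these subunits, the PND group was compared with the CON group. No AMPA subunit (0 of 4) and no kainate subunit (0 of 5) passed the study's cut-off, an absolute log2 fold change above 1 with an unadjusted p below 0.05, in the limma test across 18185 genes. Of all genes tested, 241 (1.33%) passed it, 153 (0.841%) higher and 88 (0.484%) lower in the PND group. At an unadjusted p below 0.05 alone, again 0 of the 9 members were called, against 569 genes (3.13%) of all tested, of which 315 (1.73%) were higher and 254 (1.4%) lower, and voom, the other form of the test run here, gave 1, Gria1. The limma p adjusted over all genes was 0.9999 for each of the 9, and 2 genes of all tested (0.011%) had one below 0.05. Among the AMPA subunits 1 was higher and 3 were lower in the PND group, with a median log2 fold change of -0.08. Among the kainate subunits 3 were higher and 2 lower, with a median of 0.06. Of all genes tested 52.4% were higher, with a median of 0.01.

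**Figure D2:**
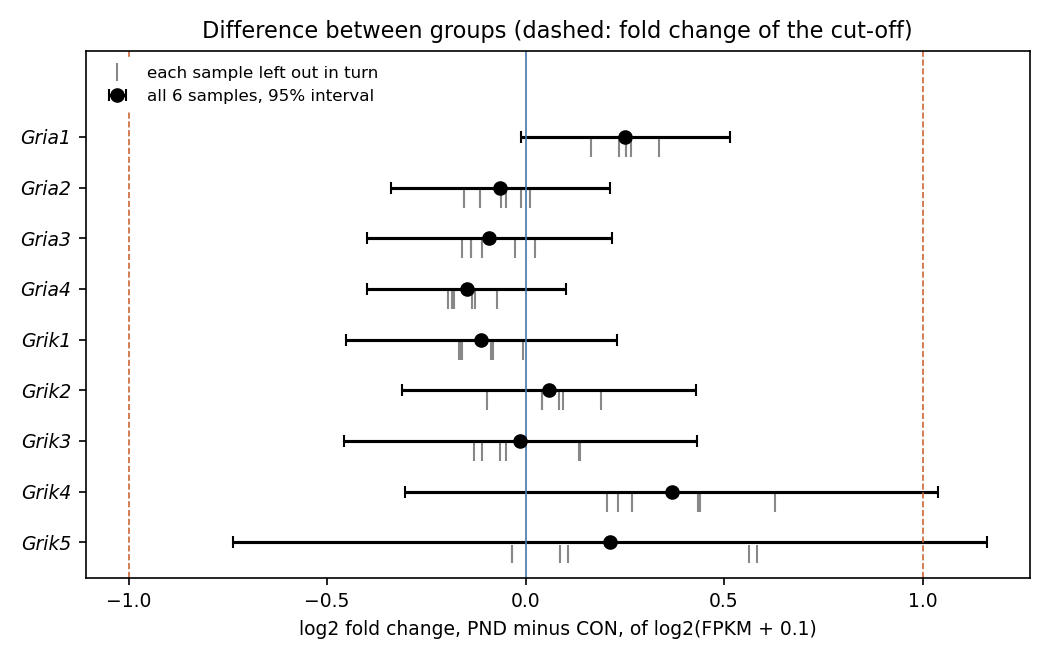
Log2 fold change of each subunit between the PND and CON groups on the log2(FPKM + 0.1) scale (points), with its 95% interval from limma (black bars) and the values when each of the 6 samples is left out in turn (grey ticks). Gria1 lies at 0.25 with an interval from -0.01 to 0.51, and the intervals of Grik4 and Grik5 are the only ones that reach past the cut-off at 1 (dashed).

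Gria1 encodes GluA1, the subunit best known for being delivered to synapses when they are strengthened. It stood at 54.0, 48.1 and 61.0 FPKM in PND replicates 1 to 3 and at 45.5, 44.4 and 46.4 FPKM in CON replicates 1 to 3. All PND samples were thus above all CON samples, and it was the only one of the 9 genes whose groups did not overlap. Such separation, in either direction, was found in 7.66% of all genes tested, with the PND group above in 3.78% and below in 3.88%. The means were 54.3 ± 6.45 and 45.4 ± 0.971 FPKM, a log2 fold change of 0.25 (SE 0.11) with a limma p of 0.0588 and an adjusted p of 0.9999. As a fold this was 1.19, with a 95% interval of 0.992 to 1.43. The CON samples were close together (CV 2.14%), and most of the spread lay in the PND group (CV 11.9%), with PND replicate 2 nearest to the CON samples. The unadjusted p of Gria1 depended on the setting. It lay below 0.05 when GC content was corrected for, with quantile normalization, with voom and without PND replicate 2, where the log2 fold change was 0.34. It lay above 0.05 in the other alternatives and above 0.1 without the intensity trend and without PND replicate 1, PND replicate 3, CON replicate 2 or CON replicate 3, and without PND replicate 3 the log2 fold change was 0.16. No adjusted p of Gria1 was below 0.831 in any alternative.

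The cell markers were read from the same fit, and no marker had a limma adjusted p below 0.05. Of the 5 endothelial markers 4 were higher in the PND group, and their sum of 26.2 to 34.5 FPKM lay above the 22.9 to 25.7 FPKM of the CON group. The groups were separate for 1 of the 5, Ly6c1 (5.79 ± 1.43 against 3.23 ± 0.117 FPKM), and overlapped for the other 4, among them Cldn5, between 0.566 and 2.43 FPKM, and Flt1, which was lower. The separation of the sums was narrow, as without Ly6c1, or without Slco1a4, PND replicate 3 lay below CON replicate 2. Of the 5 choroid plexus markers 2 passed the filter and both were higher. The sums of the list were 2.20 to 2.82 against 1.15 to 2.15 FPKM, and most of them came from Clic6. The groups were separate for Clic6 (1.84 ± 0.319 against 1.05 ± 0.399 FPKM) and overlapped for Kl (0.582 ± 0.0847 against 0.440 ± 0.0788 FPKM). Folr1 and Kcne2 were listed at 0 in at least 4 of the 6 samples. Of the 7 astrocyte markers 3 were higher and 4 lower, with overlapping sums of 297 to 407 and 262 to 547 FPKM. The groups were apart for Gfap, which was higher (21.8 ± 3.65 against 13.6 ± 1.098 FPKM), and for Aqp4, which was lower (24.0 ± 2.14 against 30.8 ± 3.85 FPKM). All 8 striatal markers were higher by log2 fold change, although the mean FPKM was lower for some of them, such as Drd1 and Drd2, and 0 of the 8 had an unadjusted p below 0.05, at overlapping sums. The sums of the other marker lists overlapped between the groups, among them those of inhibitory neurons (223 to 247 against 214 to 241 FPKM), microglia (43.6 to 49.3 against 45.8 to 54.8 FPKM) and oligodendrocytes (220 to 277 against 249.5 to 273 FPKM). Within lists whose sums overlapped, P2ry12 of the microglia was lower with separate groups (5.49 ± 1.36 against 9.27 ± 1.50 FPKM). The hippocampal marker Spink8 was the marker past the cut-off, at 0.490, 0.366 and 0.770 FPKM in the PND group and 0.201 FPKM in CON replicate 3, and it was listed at 0 in the other CON samples. The sums of its list overlapped (10.6 to 12.3 against 9.81 to 12.0 FPKM), with 6 of its 8 genes under 1 FPKM in all samples. The part of these cells in the level of Gria1 was not tested.

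Gria2, the most abundant of the family, had 81.2, 87.3 and 75.6 FPKM in the PND group and 94.3, 74.8 and 86.7 FPKM in the CON group. The groups overlapped, with the highest and the lowest sample both in the CON group. Its log2 fold change was -0.06 (SE 0.12), and the fold was 0.957 with an interval of 0.791 to 1.16. After correction for GC content or without CON replicate 1 its sign turned, to 0.011 and 0.012.

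Gria3, the X-linked AMPA subunit, had 35.3, 36.5 and 28.3 FPKM in the PND group and 38.7, 34.4 and 33.1 FPKM in the CON group. PND replicate 3 was the lowest sample, and without it the log2 fold change moved from -0.09 (SE 0.13) to 0.023. Gria4 encodes GluA4, a subunit prominent in fast-spiking interneurons. It had 37.5, 38.3 and 32.3 FPKM in the PND group and 41.1, 40.6 and 38.0 FPKM in the CON group. Only PND replicate 2 reached into the CON range, and the log2 fold change was -0.15 (SE 0.11; -0.07 without PND replicate 3), which as a fold is 0.902 with an interval of 0.758 to 1.07. Gria1 and Gria4 thus differed in opposite directions, neither of them past the cut-off.

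The composition of the AMPA family followed from these levels. Gria2 made up 39.6% ± 1.67 (SD, n = 3) of the summed AMPA FPKM in the PND group and 41.3% ± 2.43 in the CON group. The share of Gria1 was 25.9%, 22.9% and 30.9% in PND replicates 1 to 3 and 20.7%, 22.9% and 22.7% in CON replicates 1 to 3. It was 4.47 percentage points higher in the PND group on average, but PND replicate 2 and CON replicate 2 had the same share to within rounding. Without PND replicate 3 the difference was 2.30 percentage points, and it lay between 3.78 and 6.33 when any other sample was left out. Gria4 made up 17.6% ± 1.02 and 19.4% ± 1.30, with PND values from 16.4% to 18.2%, all below the CON values from 18.6% to 20.9%. The difference of -1.85 percentage points was -1.104 without CON replicate 2. The level of Gria1 per Gria2 was 0.665, 0.551 and 0.806 in the PND group and 0.483, 0.594 and 0.535 in the CON group, and these ranges overlapped. As the members were chosen by name, these shares are given without a test.

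**Figure D3:**
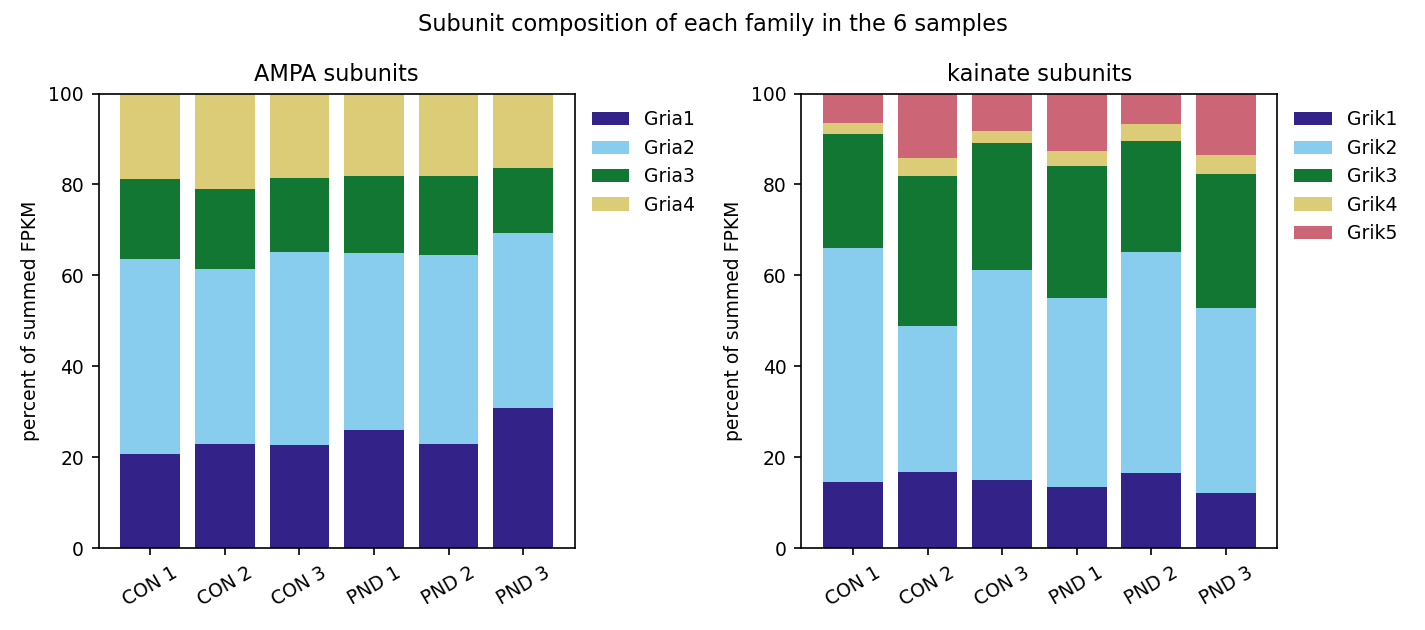
Share of each subunit in the summed FPKM of the AMPA family (left) and of the kainate family (right), as stacked bars in percent, with 1 bar per mouse. Gria2 takes between 38.4% and 42.9% of the AMPA family in every sample, whereas Grik2 takes between 32.1% and 51.5% of the kainate family, with both ends in the CON group.

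Among the kainate subunits, Grik2 (GluK2) was the most abundant. It had 19.5, 20.97 and 21.02 FPKM in the PND group and 23.6, 15.8 and 20.4 FPKM in the CON group. As deposited, the 3 PND samples were nearly alike (CV 4.26%) and lay inside the CON range (CV 19.7%). After correction for GC content, the SD on the log2 scale went from 0.06 to 0.14 in the PND group. In the CON group it went from 0.29 to 0.12. The log2 fold change of Grik2 without this correction was 0.06 (SE 0.16), with an interval from -0.31 to 0.43. Without CON replicate 2, the lowest sample, it was -0.10. Grik3 (GluK3) had 13.7, 10.6 and 15.3 FPKM in the PND group and 11.5, 16.2 and 12.3 FPKM in the CON group, nearly equal means of 13.2 ± 2.44 and 13.3 ± 2.50 FPKM. Its log2 fold change of -0.01 (SE 0.19), with an interval from -0.46 to 0.43, turned to 0.14 without PND replicate 2 and to 0.13 without CON replicate 2. Grik1 (GluK1), a subunit found mainly in interneurons of the cortex, had 6.38, 7.14 and 6.35 FPKM in the PND group and 6.68, 8.29 and 6.60 FPKM in the CON group. The groups overlapped and the highest level was that of CON replicate 2. The log2 fold change was -0.11 (SE 0.15), with an interval from -0.45 to 0.23, and without CON replicate 2 it was -0.0062.

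The high-affinity subunits varied most. Grik5 (GluK5) had 5.92, 2.93 and 7.02 FPKM in the PND group and 3.01, 7.00 and 3.68 FPKM in the CON group. Its samples spread 2.40-fold from the lowest to the highest, more than in 82.4% of the 12387 genes that averaged 1 FPKM or more, and each group held samples near both ends. The log2 fold change was 0.21 (SE 0.41), and the interval of the fold, 0.600 to 2.24, was the widest of the 9. The sign turned when PND replicate 3 was left out (-0.034) and likewise when CON replicate 1 was (-0.033). Grik4 (GluK4) had 1.60, 1.58 and 2.14 FPKM in the PND group and 1.05, 1.97 and 1.15 FPKM in the CON group. All PND samples were above CON replicates 1 and 3 but not all above CON replicate 2. Its log2 fold change of 0.37 (SE 0.29) was the largest of the family, with a fold of 1.29 and an interval of 0.811 to 2.05. Without CON replicate 2 it was 0.63 (limma adjusted p = 0.831), and only then was its unadjusted p below 0.05, while it was 0.21 without CON replicate 1, 0.23 without PND replicate 3 and 0.27 without CON replicate 3. Its level rested on an estimated 46.8 to 120 fragments per sample, against 116 to 340 for Grik5 and at least 320 for each other member.

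In the kainate family Grik2 held 43.5% ± 4.42 of the summed FPKM in the PND group and 43.3% ± 10.04 in the CON group. Grik4 and Grik5 together held 16.0%, 10.4% and 17.7% in PND replicates 1 to 3 and 8.86%, 18.2% and 11.0% in CON replicates 1 to 3. The level of Grik5 per Grik2 ran from 0.128 in CON replicate 1 to 0.444 in CON replicate 2, so that the range of the PND group, 0.140 to 0.334, lay within that of the CON group.

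The spread of the subunits between samples was then set beside the GC content of their transcripts. The longest transcripts ranged from 36.8% GC in Gria2, at the 3.25th percentile of 12323 genes, through 37.9% in Grik2 and 39.8% in Gria3 to 54.2% in Grik3 and 61.7% in Grik5, at the 98.8th percentile. The 2 samples with the lowest level of Grik5 (PND replicate 2 and CON replicate 1) were those in which GC-rich genes as a whole were lowest, and the 2 with the highest (PND replicate 3 and CON replicate 2) were those in which they were highest. Gria2 ran the other way, with its highest level in CON replicate 1 and its lowest in CON replicate 2. When the dependence on GC content was taken out of each sample by a smooth curve over all genes, the range of Gria2 over the 6 samples shrank from 0.33 to 0.07 on the log2 scale, that of Grik3 from 0.61 to 0.24 and that of Grik5 from 1.23 to 0.54. The range of Gria1 (48.5% GC) was 0.46 before and after, and that of Grik1 was 0.38 before and after. The correction left the sign of the difference between the groups as it was for 8 of the 9 members, all but Gria2. Its size changed by over 1.5 times for Gria3 (from -0.09 to -0.041), Grik2 (from 0.06 to 0.12), Grik3 (from -0.014 to -0.068) and Grik5 (from 0.21 to 0.11).

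**Figure D4:**
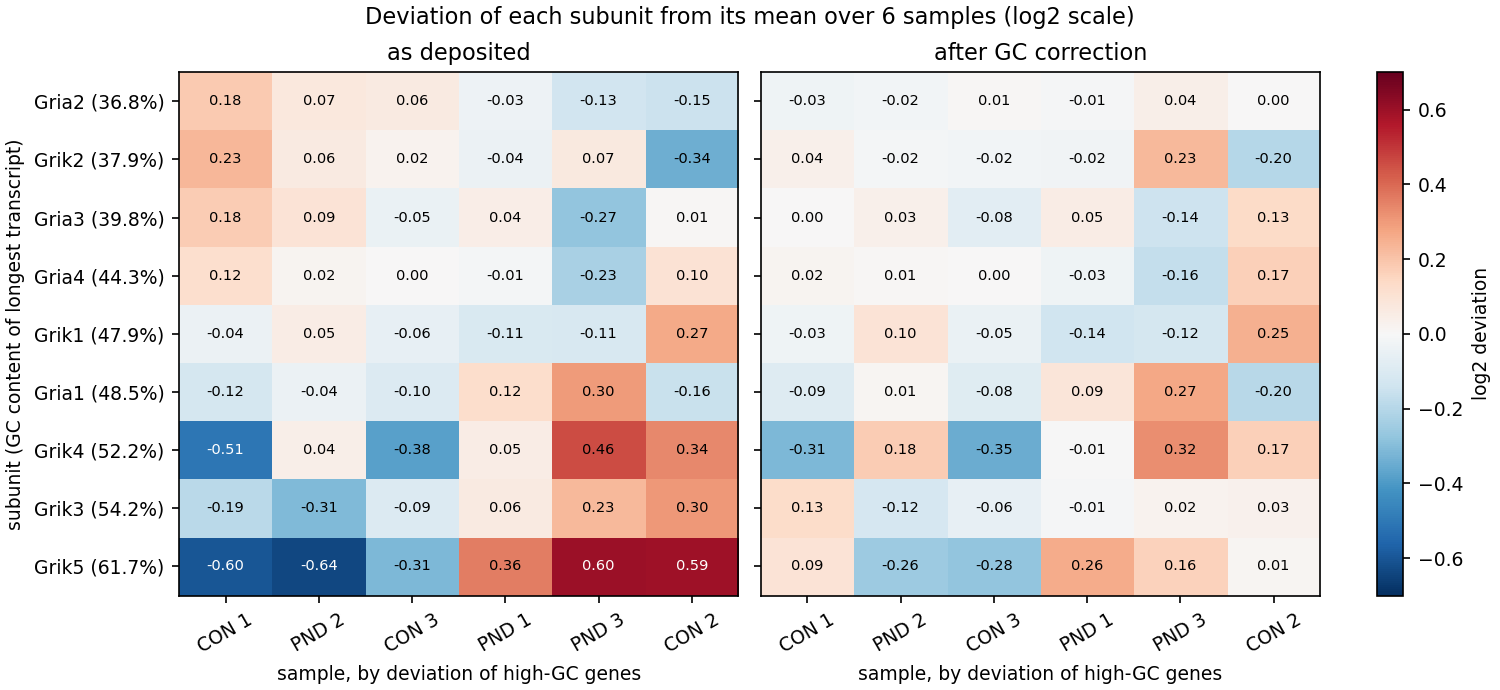
Deviation of each subunit from its mean over the 6 samples on the log2 scale, as deposited (left) and after correction for GC content (right). Rows are ordered by the GC content of the longest transcript and columns by the median deviation of GC-rich genes, and the span of Gria2 and Grik5 along their rows, 0.33 and 1.23 as deposited, is 0.07 and 0.54 after correction.

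Genes with a like pattern over the 6 samples were sought among the genes averaging 1 FPKM or more. Closest to Gria2 were Rtf1, Bclaf1 and Rnf217, with Pearson correlations of 0.997, 0.997 and 0.996, as a description over 6 samples that share the same libraries. Such likeness was common, as 167 genes had a correlation above 0.95 with Gria2. Closest to Grik2 were Gm43387, Eed and C430039J01Rik (0.993, 0.992 and 0.988), with 61 genes above 0.95. Among the members themselves, Grik3 and Grik5 were the most alike (0.97 over 6 samples), and Gria2 and Grik5 the least (-0.94). These levels were not corrected for GC content, which is 36.8% in Gria2, 54.2% in Grik3 and 61.7% in Grik5. Correlations above 0.95 were found for 270 genes with Grik3 and 319 genes with Grik5.

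Receptors of this kind work together with partner proteins, and 61 partner genes in 7 lists were read from the same fit. Of the 60 that passed the filter, 28 were higher and 32 lower in the PND group, with a median log2 fold change of -0.01. Higher and lower are counted here by the sign of the log2 fold change, and for 6 of the 60 (Cacng7, Cacng8, Cnih2, Prrt2, Cpt1c and Grasp) the mean FPKM of the groups stood in the opposite order. By limma none (0) passed the cut-off, against 1.33% of all genes, and 1 had an unadjusted p below 0.05, against 3.13%. In 4 of the 60 the groups did not overlap, against 7.66%. The gene that failed the filter was C1ql2, a partner of kainate receptors at mossy fibre synapses, which was listed at 0 in 4 samples.

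Auxiliary subunits bind AMPA receptors directly and set their gating and traffic. Of 15 measured, 7 were higher and 8 lower in the PND group on the log2 scale, 0 of them with an unadjusted p below 0.05. The highest level was that of Gsg1l, with 14.2 ± 3.23 FPKM in the PND group and 15.6 ± 3.80 FPKM in the CON group, and Cacng2 (stargazin), which brings AMPA receptors to the cell surface, had 9.96 ± 0.580 and 9.35 ± 1.39 FPKM. Cacng7, singled out after its levels were seen, ran in the same order as the GC-rich genes, from 5.41 FPKM in CON replicate 1 to 15.7 FPKM in CON replicate 2. Cnih3, a cornichon protein that slows the closing of AMPA receptors, had 1.06, 3.14 and 4.30 FPKM in the PND group and 2.38, 0.756 and 0.413 FPKM in the CON group. Its groups overlapped, and the log2 fold change over all samples was 1.31 (SE 0.68, interval from -0.29 to 2.90), past the fold of the cut-off but not its p. It passed both without PND replicate 1 (log2 fold change 1.88) and without CON replicate 1 (1.94).

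Of 7 genes for assembly in the endoplasmic reticulum, 3 were higher and 4 lower. Frrs1l, which helps to build AMPA receptors there, had the highest level at 58.5 ± 16.8 FPKM in the PND group and 60.4 ± 12.1 FPKM in the CON group. Abhd6, which limits the delivery of AMPA receptors, was one of the genes with separate groups, at 10.5, 10.1 and 6.02 FPKM against 10.7, 15.6 and 10.8 FPKM (log2 fold change -0.50, SE 0.25). Of 14 trafficking and scaffold genes 7 were higher and 7 lower. The ATPase Nsf, which binds GluA2, was the most abundant at 72.0 ± 4.84 and 70.2 ± 3.79 FPKM. Of 11 extracellular clustering genes 5 were higher and 6 lower. Olfm1 stood highest at 65.1 ± 6.50 and 73.2 ± 8.97 FPKM, and Lrrtm4, a synaptic adhesion protein, had separate groups at 1.70 ± 0.1001 and 2.26 ± 0.314 FPKM (log2 fold change -0.39, SE 0.19).

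Among the 7 kainate receptor partners 6 were tested, with 3 higher and 3 lower. Neto1, an auxiliary subunit that slows kainate receptor currents, was the most abundant at 52.0 ± 5.69 FPKM in the PND group and 51.7 ± 10.4 FPKM in the CON group. Its level per summed kainate subunits was 1.11 ± 0.222 and 1.12 ± 0.249, and it was below 1 in PND replicate 3 and CON replicate 2. Of the 3 genes in the list of the adenosine deaminase family, to which the enzymes that edit receptor RNA belong, 2 were higher and 1 lower. Adar had 11.3 ± 3.56 and 10.8 ± 3.52 FPKM. Adarb1, the enzyme that edits the pore codon of Gria2, had 6.27, 5.92 and 4.58 FPKM in the PND group and 4.24, 5.97 and 3.86 FPKM in the CON group. Adarb2, a family member not known to edit RNA itself, had separate groups at 2.92 ± 0.181 and 3.22 ± 0.00829 FPKM, but a log2 fold change of only -0.14 (SE 0.15). Editing itself cannot be read from gene levels.

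In the list of delta receptors and their ligands, 2 of 5 genes were higher and 3 lower. Grid1 had 9.53 ± 0.533 FPKM in the PND group and 10.2 ± 0.889 FPKM in the CON group. Cbln1, a secreted ligand that links delta receptors to nerve terminals, was the partner with an unadjusted p below 0.05. It had 0.693, 0.646 and 0.844 FPKM in the PND group and 0.477, 0.376 and 0.426 FPKM in the CON group, with each PND sample above each CON sample. Its log2 fold change was 0.65 (SE 0.27, limma adjusted p = 0.9999). Its unadjusted p no longer lay below 0.05 after GC correction, with quantile normalization, without a filter or when any 1 sample was left out.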

How the data were processed

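Total RNA of prefrontal cortex was sequenced by the authors after ribosomal RNA removal on an Illumina instrument. Per the study's methods, reads were filtered with Seqtk, aligned with HISAT2, counted with StringTie and scaled by TMM, and the deposited values are FPKM per gene, 1 table per mouse. The submitters' processing notes also name Bowtie 0.12.2 and the builds mm8 and mm9, without a role. The annotation, the build behind the FPKM and the use of strand were not given in the sources used here. The files hold no counts, and the depth was estimated from the steps of low levels, of which 41.5% to 44.7% were whole within 0.05 fragments, so that counts were not recovered and a count test was not the main one.

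Groups were taken from the sample labels, 3 PND and 3 CON mice. The 6 tables were joined by Ensembl identifier, and no 2 of them held identical values. Genes averaging 0.1 FPKM or more over the samples (18185 of 21006) were tested on log2(FPKM + 0.1) with limma 3.58.1 in R 4.3.3 (trend, two-sided), adjusted after Benjamini-Hochberg over all of them. Fold changes on this scale understate those of low genes. With 3 mice a group, an exact permutation test of 1 gene cannot go below p = 0.1. Alternatives were other pseudocounts (0.01 and 1), other filters (none and 1 FPKM), no trend, quantile normalization, median centring, a replicate block, a GC correction (lowess, span 0.3), voom on estimated fragments and leaving out each mouse.

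Symbols, coordinates, GC content and sequences were taken from GENCODE M21 (GRCm38), which matched 20866 identifiers, and reading frames were translated and aligned with MAFFT 7.526. The sequence of 1 member and the values of some markers are not reported here. All 9 members are named. Of the partners, the text names each gene with an unadjusted p below 0.05 and the most abundant gene of each list, and the other partners were named after their values were seen. The 3 genes most like a member are given for the most abundant subunit of each family. The members and lists were chosen with earlier results of these data known. The procedure was tested on simulated data.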

Additional observations from a re-analysis of the deposited data

How the results depend on the processing

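The count of AMPA and of kainate subunits past the cut-off was 0 in all 17 alternatives. Over all genes the count was 241, and it moved to 25 with a pseudocount of 1, to 59 with the filter at 1 FPKM, and to between 235 and 388 when 1 mouse was left out, with 388 without CON replicate 2. The share of higher genes among those past the cut-off was 63.5%, but 51.7% with quantile normalization and 52.0% with a pseudocount of 1. When 1 mouse was left out it ran from 45.5% without PND replicate 3, where most were lower, to 73.7% without CON replicate 2. The count of partner genes was 0, and 0 to 1 when 1 mouse was left out, the gene being Cnih3. With GC correction, with or without the replicate block, the log2 fold change of Gria2 turned to 0.011. When 1 mouse was left out, the sign turned for Gria2 (-0.15 to 0.012), Gria3 (-0.16 to 0.023), Grik2 (-0.10 to 0.19), Grik3 (-0.13 to 0.14) and Grik5 (-0.034 to 0.58). The cause was not tested. Gria1, Gria4, Grik1 and Grik4 had 1 sign in all 17 alternatives, but their size moved when 1 mouse was left out, to between 0.16 and 0.34 for Gria1, -0.19 and -0.07 for Gria4, -0.17 and -0.0062 for Grik1, and 0.21 and 0.63 for Grik4. The order of levels had 6 of 8 pairs past the threshold with or without the log2 scale. For these 6 pairs the exact p rests only on the direction in the 6 samples. The scale does not change that direction, so the agreement was fixed in advance and is no check.

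Mice with the same replicate number did not deviate together (correlations -0.05, -0.45 and 0.03), and the labels name no pairing. The samples also differed in how levels followed GC content, so these correlations cannot decide whether mice were paired. With the replicate block 226 genes passed the cut-off, and the log2 fold change of Gria1 was 0.25, with its unadjusted limma p still above 0.05. With GC correction and the block together it lay below 0.05. The unadjusted p of Cbln1 lay above 0.05 with the block. With 3 mice a group the intervals of Grik4 and Grik5 reach past the cut-off, and the number of mice limits what can be said of them.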
